A study of Homo sapiens with 6 samples.

Results

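Nuclear transcription regulators are proteins that act in the nucleus on the rate at which genes are read. Some bind DNA themselves through a zinc finger, homeobox, basic helix-loop-helix (bHLH), ETS, forkhead or similar domain. Others are cofactors carried to DNA by these, remodel or mark chromatin, or belong to the general machinery that loads RNA polymerase. In breast cancer cells such factors are known for setting the programmes of division, of response to growth factors and of epithelial or mesenchymal state.

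The regulators described here were chosen from the authors' table of log ratios, by the software annotation in it (type transcription regulator, location nucleus). Histone genes and the genes ELF3, IRF1, EGR1, ANKRD1, E2F8, RBMS3, PTTG1, CENPF and HJURP were left out. Of 39 entries of that type and location, this took out 4, those of ELF3, IRF1, EGR1 and PTTG1. The other genes named have another type or location there. This gave 35 of the 724 entries, which belong to 30 of 680 genes. A gene is in that table through its measured log ratio, since no entry is smaller than 0.537 in size in the authors' deposited table. Nearest to that edge among the members were SCML2 at 0.544 and MAML2 at -0.545 in the authors' deposited table, and no value outside it is listed. The log ratios therefore chose the members, and they are given as a description with no test. In bulk RNA, fewer cells that express a gene and less of its RNA per cell cannot be told apart.

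The cells were of MDA-MB-231, a human breast cancer cell line that lacks oestrogen receptor, and received by lentivirus either a hairpin RNA directed at LOXL2 (shLOXL2) or a control hairpin (shControl). Each group had 3 arrays of total RNA, all from this single line, and no other treatment or time is given. LOXL2 is a lysyl oxidase, secreted into the matrix and also described in the nucleus. For 2 of the 3 shControl arrays, replicates 2 and 3, the source name says shLOXL2, whereas title and knockdown field say control, and they were used as controls. The labels do not say whether replicates are separate cultures, so p-values measure the spread between these arrays only. LOXL2, the target of the hairpin, is the lowest entry of the authors' deposited table, at -3.04. The sign of the table was read from LOXL2, as shLOXL2 over shControl, so this value does not check the knockdown. Of 18 markers that tell this line from epithelial, blood, endothelial or fibroblast cells, 1 was listed, EPCAM, an epithelial adhesion molecule, at 0.63 in the authors' deposited table. A table of changed genes does not show whether the others were expressed.

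Of the 30 regulators, 20 were listed higher and 10 lower in shLOXL2 cells in the authors' deposited table. Over all 679 genes with entries of a single sign, 56.6% were listed higher and 43.4% lower in the authors' deposited table. The share of regulators listed higher was 66.7% in the authors' deposited table. Among the 134 other genes placed in the nucleus, a set that includes histone and mitotic genes, 114 were listed higher and 20 lower in the authors' deposited table, or 85.1% higher. The median size of a log ratio was 0.63 for the regulators and 0.65 for all genes in the authors' deposited table. Sizes of 1 or more were reached by 2 regulators, ZNF165 and HMGB2, and by 61 of the 679 genes, or 8.98%, in the authors' deposited table. Of the regulators, 10 lay at or above the median size of all entries, 0.652, or 33.3%, against 337 of the 679 genes, or 49.6%, in the authors' deposited table.

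**Figure D1:**
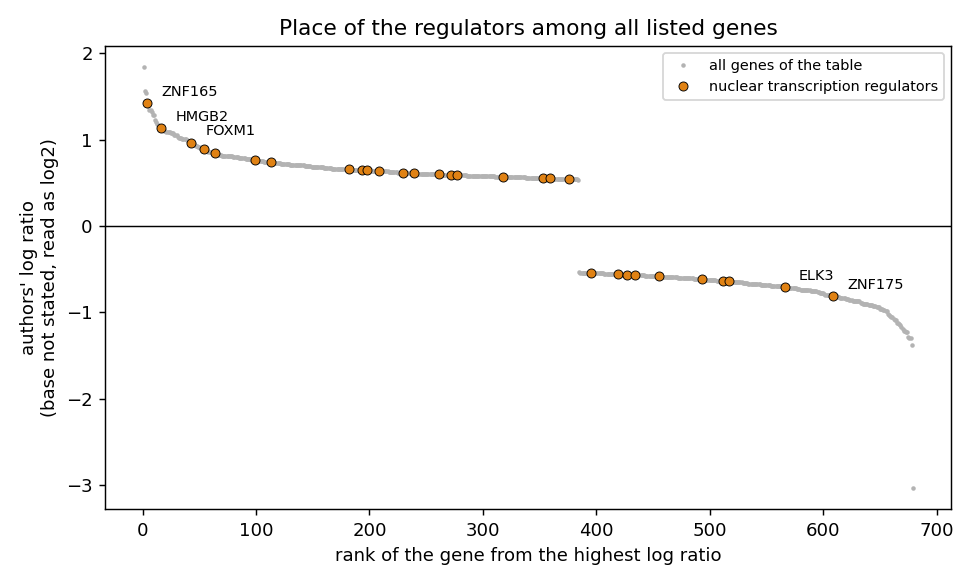
Log ratio of every gene in the authors' deposited table (vertical axis, base not stated, read as log2) against its rank from the highest (horizontal axis), with the 30 nuclear transcription regulators as filled circles. ZNF165 and HMGB2 are the regulators at 1 or more, and the lowest is ZNF175 at -0.81.

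Grouped by role, the 12 DNA-binding proteins were split evenly, 6 listed higher and 6 lower in the authors' deposited table. The 14 cofactors, chromatin proteins and general factors had 11 listed higher and 3 lower in the authors' deposited table. The other 4 members, ASB2, LSR, CREG1 and ANKRD5, had 3 listed higher and 1 lower in the authors' deposited table. The classes were assigned by hand with these values known, and their difference was not tested.

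**Figure D2:**
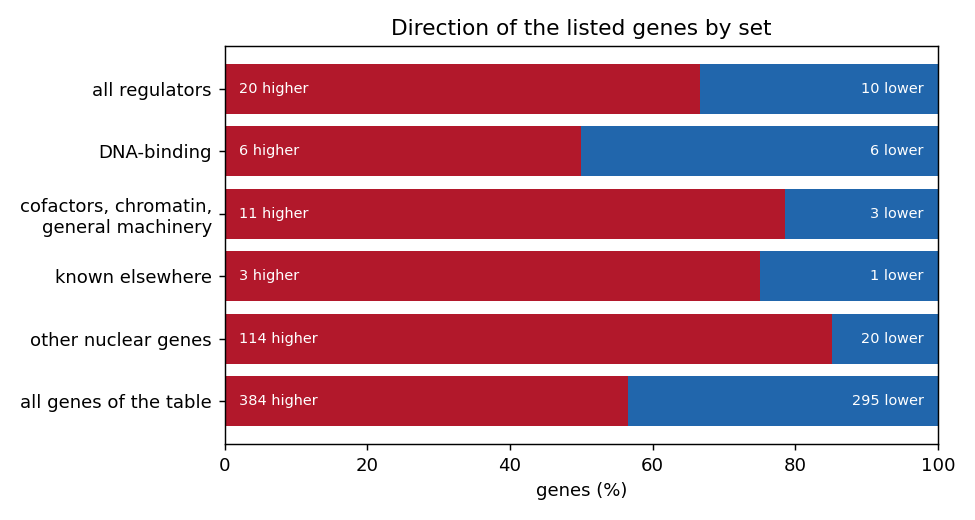
Share of genes listed higher (red) and lower (blue) in the authors' deposited table for all regulators, for 3 classes of them, for the other genes placed in the nucleus and for all genes, with the number of genes in each bar. DNA-binding regulators are split 6 to 6, whereas the other nuclear genes are split 114 to 20.

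**Figure D3:**
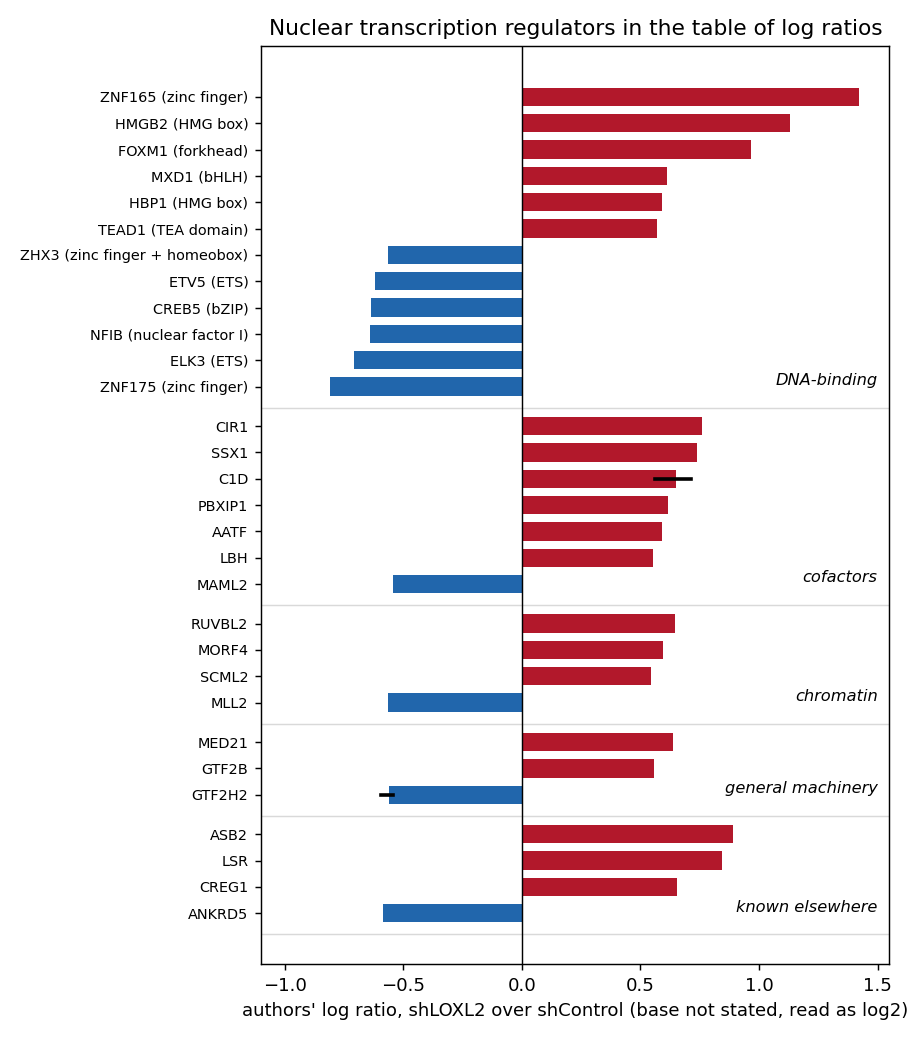
Log ratio of each of the 30 regulators in the authors' deposited table, grouped by role, with the DNA-binding family in brackets. Bars start at 0, red is listed higher and blue listed lower in shLOXL2 cells, and the black line spans the entries of C1D and of GTF2H2, which have more than 1.

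Start sites were compared for the 21 members with a promoter in the RefSeq table (GRCh38.p14), 14 listed higher and 7 lower. The 9 members without one there were not searched: ZNF165, HMGB2, FOXM1, TEAD1, ETV5, MED21, MORF4, MLL2 and ANKRD5. The 250 bases before the start site were searched on both strands for 10 motifs. The 5 promoters shown belong to DNA-binding members, of which MXD1 and HBP1 were listed higher and ELK3, ZHX3 and ZNF175 lower. In all, 7 DNA-binding members had a promoter, and those of CREB5 and NFIB, both listed lower, are not shown. Capitals mark the CCAAT box (CCAAT), the GC box that SP and KLF proteins bind (GGGCGG) and the ETS site (CCGGAA), on either strand. No marked motif overlaps another.
MXD1 (chr2:69914859-69915108, plus strand): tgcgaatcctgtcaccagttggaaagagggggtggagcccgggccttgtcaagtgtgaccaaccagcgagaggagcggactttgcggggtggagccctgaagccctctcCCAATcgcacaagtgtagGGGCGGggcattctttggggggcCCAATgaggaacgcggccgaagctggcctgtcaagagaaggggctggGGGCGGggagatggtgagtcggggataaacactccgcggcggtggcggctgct
HBP1 (chr7:107168753-107169002, plus strand): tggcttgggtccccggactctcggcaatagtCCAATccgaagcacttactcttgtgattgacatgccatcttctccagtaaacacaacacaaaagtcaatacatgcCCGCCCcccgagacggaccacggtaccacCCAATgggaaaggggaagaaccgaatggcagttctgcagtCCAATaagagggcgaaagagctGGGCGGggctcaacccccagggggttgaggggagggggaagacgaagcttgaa
ELK3 (chr12:96194125-96194374, plus strand): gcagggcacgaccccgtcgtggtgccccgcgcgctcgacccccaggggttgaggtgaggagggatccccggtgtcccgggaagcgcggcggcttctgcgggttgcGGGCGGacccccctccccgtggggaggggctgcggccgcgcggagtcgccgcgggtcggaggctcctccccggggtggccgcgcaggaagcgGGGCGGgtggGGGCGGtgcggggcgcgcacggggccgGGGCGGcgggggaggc
ZHX3 (chr20:41317732-41317981, minus strand): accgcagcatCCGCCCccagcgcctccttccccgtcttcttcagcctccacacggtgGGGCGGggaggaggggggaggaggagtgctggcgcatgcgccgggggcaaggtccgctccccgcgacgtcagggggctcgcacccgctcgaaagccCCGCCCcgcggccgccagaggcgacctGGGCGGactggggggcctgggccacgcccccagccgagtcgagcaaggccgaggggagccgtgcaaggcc
ZNF175 (chr19:51571033-51571282, plus strand): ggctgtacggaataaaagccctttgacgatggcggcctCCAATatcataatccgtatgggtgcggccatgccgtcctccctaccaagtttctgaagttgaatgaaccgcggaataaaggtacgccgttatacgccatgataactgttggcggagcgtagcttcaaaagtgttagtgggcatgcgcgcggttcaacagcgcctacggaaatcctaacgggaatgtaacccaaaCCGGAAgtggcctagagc

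HBP1 had 3 CCAAT boxes and 2 GC boxes, and MXD1 had 2 of each. ELK3 and ZHX3 had 4 GC boxes each and no CCAAT box, with GC contents of 82.0% and 76.4%. ZNF175 had 1 CCAAT box and 1 ETS site and no GC box. CREB5 had 1 CCAAT box and no GC box, and NFIB had 2 CCAAT boxes and 1 GC box, each with a GC content of 42%. By direction, a CCAAT box was found in 7 of 14 promoters of members listed higher and in 3 of 7 listed lower. Over all members a CCAAT box was found in 10 of 21 promoters, or 47.6%, against 43.8% of 509 promoters of listed genes and 34.5% of 15843 promoters of protein-coding genes. A GC box was found in 13 of 21, or 61.9%, against 64.2% and 55.8%. The ETS site was present in 3 of 21, or 14.3%, against 17.3% and 19.2%. GTF2H2 held 4 of the ETS letters in its 250 bases. The median GC content was 62.0% for members and 62.4% and 62.0% for the other sets.

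Of the other motifs, 4 were found in 3 of 21 promoters each, or 14.3%. For the cell cycle homology region (CHR, TTTGAA) the shares were 15.5% of listed genes and 10.9% of protein-coding genes. The TEAD letters (GGAATG) occurred in 11.6% and 10.1% of these sets, and the TATA box (TATAAA) in 13.4% and 9.37%. The E-box (CACGTG), which MYC, MAX and MXD proteins bind, occurred in 51 of the 509 and in 7.81%. SSX1 alone held an E2F site (TTTCCCGC, TTTGGCGC or TTTCGCGC), and no promoter searched held the AP-1 letters (TGANTCA) or the CRE (TGACGTCA), which occur in 5.04% and 2.30% of protein-coding genes. A match is a run of letters and not a binding site, and a single gene makes up 4.76% of 21 promoters.

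Zinc finger proteins, which hold DNA with finger-like loops around a zinc ion, were found at both ends of the list. ZNF165, a zinc finger protein with a SCAN domain that is normally made in the testis, was the highest regulator, at 1.42 in the authors' deposited table (2.68-fold if log2). It ranked 5 by size among the 679 genes in the authors' deposited table. ZNF175, a Krüppel-associated box (KRAB) zinc finger protein, was the lowest, at -0.81 in the authors' deposited table. ZHX3, a repressor that carries zinc fingers and homeoboxes, was at -0.57 in the authors' deposited table. The annotation did not type all zinc finger genes as regulators. With every gene whose name holds the words zinc finger, there were 8, of which 3 were listed higher and 5 lower in the authors' deposited table. Beside ZNF175 and ZHX3, the lower ones were ZBTB4 at -0.91, HKR1 at -0.70 and ZNF792 at -0.59 in the authors' deposited table. Of the added higher ones, ZCRB1, at 0.93 in the authors' deposited table, has a zinc finger that belongs to an RNA-binding protein, and ZNF204, at 0.74, is named as a pseudogene there.

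Homeobox and bHLH factors were each represented by a single member. Of 39 HOX genes, which pattern the body axis, and 61 other homeobox genes looked for, none but ZHX3 was in the authors' deposited table. MXD1, a bHLH leucine zipper protein that pairs with MAX and represses MYC targets, was at 0.61 in the authors' deposited table. Of the 12 genes of the MYC and MAX network it was the only one listed, and 0 of the 15 ID, HES and HEY repressors and 0 of the 17 PAS-domain bHLH factors were in the authors' deposited table.

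Among the 8 DNA-binding factors of other families, 4 were listed higher and 4 lower in the authors' deposited table. HMGB2, an HMG-box protein that bends DNA and is abundant in dividing cells, was at 1.13 in the authors' deposited table (2.19-fold if log2). FOXM1, the forkhead factor known for driving genes of G2 phase and mitosis, was at 0.97 in the authors' deposited table (1.95-fold if log2). Of the genes known as its targets, PLK1, a mitotic kinase, was at 1.10 and CCNB1, a mitotic cyclin, at 0.89 in the authors' deposited table. They were picked after their values were seen, and no list of targets was counted. Of the other nuclear genes, 85.1% were listed on the higher side there. HBP1, an HMG-box repressor known for slowing the cell cycle, was listed on that side too, at 0.59 in the authors' deposited table. FOXM1 was the only one of 30 forkhead genes listed, and with E2F8 it made 2 of 18 cell cycle factors in the authors' deposited table. An entry named TEAD1, the DNA-binding partner of the co-activators YAP and TAZ, was at 0.57 in the authors' deposited table. It carries the identifier AA and takes the name TEAD1 from the symbol column. Other identifiers there look shortened, such as SERPI3 and GQ, so the gene behind AA was not settled. The entry is still counted here as a DNA-binding member. CTGF and CYR61, targets of YAP with TEAD, were at -1.23 and -1.09 in the authors' deposited table. Activity of YAP or TEAD was not tested. YAP1, WWTR1 (TAZ) and the other TEAD genes were not listed.

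ETS factors among the members were listed lower. ELK3, which joins serum response factor at growth-factor responsive genes, was at -0.71 in the authors' deposited table. ETV5, an activator known to be induced through ERK, was at -0.62 in the authors' deposited table. Of 25 ETS genes looked for, 3 were listed, the other being ELF3, an epithelial factor, at 0.75 in the authors' deposited table. CREB5, a leucine zipper protein of the CREB and ATF kind, was at -0.64, alone among 17 such genes in the authors' deposited table. NFIB, a nuclear factor I protein, was at -0.64 as well in the authors' deposited table. EGR1 and DUSP1, growth-factor induced genes named after their values were seen, had -0.97 and -0.93 in the authors' deposited table. EGR1 was the only 1 of 6 EGR and NAB genes listed, and none of 11 AP-1 subunits was. No list of growth-factor induced genes was counted, and a difference in ERK signalling was not tested.

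Of the cofactors, 6 of 7 were listed higher, or 85.7%, in the authors' deposited table. This was near the 85.1% of the other nuclear genes, and 56.6% of all genes were listed higher there. CIR1, which links the Notch pathway factor RBPJ to histone deacetylases, was at 0.76 in the authors' deposited table. On the lower side stood MAML2, the co-activator that turns RBPJ on once Notch is cleaved, with -0.545 in the authors' deposited table. NOTCH2, typed as a regulator but placed in the plasma membrane, was at -0.68 in the authors' deposited table. NOTCH2 was named after its value was seen, no list of Notch genes was counted, and a difference in Notch signalling was not tested. SSX1, a repressor of the testis known for its fusion in synovial sarcoma, was at 0.74 in the authors' deposited table. C1D, a partner of nuclear receptors and of the nuclear exosome, had 3 entries, 0.71, 0.67 and 0.56, with a mean of 0.65 in the authors' deposited table. PBXIP1, which binds PBX homeodomain proteins, AATF, a partner of RNA polymerase, and LBH, a factor of limb and heart development, were at 0.615, 0.589 and 0.551 in the authors' deposited table.

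Chromatin proteins and the general machinery had median sizes of 0.581 and 0.560, against 0.651 for all genes in the authors' deposited table. Small sizes were not particular to them, since 17 of the 30 members lay within 0.1 of the smallest entry. RUVBL2, an ATPase shared by the INO80 and TIP60 complexes, was at 0.65, and SCML2, a Polycomb protein, at 0.54 in the authors' deposited table. MLL2, at -0.56 in the authors' deposited table, is a name that has stood for KMT2D and KMT2B, histone methyltransferases both, so the gene behind it was not settled. MORF4, at 0.60 in the authors' deposited table, is annotated as a pseudogene in RefSeq, and MORF4L1, its close relative, was listed too, at 0.54. Probe sets of so similar a pair may share signal. MED21, a subunit of the Mediator complex, was at 0.64, and GTF2B (TFIIB), which places the polymerase at the start site, was at 0.56 in the authors' deposited table. Mediator had 2 of 31 genes listed, with CCNC at 0.605 in the authors' deposited table. GTF2H2, a subunit of TFIIH, had 4 entries, -0.544, -0.544, -0.559 and -0.595, with a mean of -0.56 in the authors' deposited table. Its near copy GTF2H2D was at -0.54 in the authors' deposited table, and probe sets of such copies may share signal. None of the 16 TBP and TAF genes was listed.

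Members better known outside the nucleus were typed as nuclear regulators by the software. ASB2, which brings substrates to a cullin ubiquitin ligase, was at 0.89 in the authors' deposited table. LSR, a lipoprotein receptor of the plasma membrane that also marks tricellular junctions of epithelia, was at 0.845 in the authors' deposited table. CREG1, a secreted and lysosomal glycoprotein, was at 0.655, and ANKRD5, an ankyrin repeat protein, at -0.585 in the authors' deposited table. Without these genes there were 17 regulators listed higher and 9 lower in the authors' deposited table.

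Across 26 lists of transcription factor and cofactor genes, the authors' deposited table held 14 of 489 genes, or 2.86%, with 9 on the higher and 5 on the lower side. The 9 include the entry named TEAD1. For scale over all genes, 509 listed genes had a promoter in RefSeq, as did 15843 protein-coding genes. The lists are not shown to hold more or fewer listed genes than that. None of the 12 transcription factors of the epithelial to mesenchymal transition (SNAI1, ZEB1 and others), 11 AP-1 subunits, 12 SMAD and SKI genes, 10 NF-kB and IkB genes, 20 SOX genes, 26 KLF and SP genes or 39 nuclear receptors was listed. At the 2.86% of all lists together, short lists hold few listed genes or none. An unlisted gene may have changed by less than the smallest entry, or have failed a selection that the table does not state. Among the genes named as left out, PTTG1 was at 0.82 and IRF1 at 0.59 in the authors' deposited table. E2F8, not typed as a regulator, was at 0.61, and ANKRD1, placed in the cytoplasm, at -0.97 in the authors' deposited table.

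No source used here pairs the probe sets of the arrays with genes, so the regulators have no value per array, no SD and no test. The error of probe sets with a measured difference of this size can be given, without gene names. Of 32321 probe sets, 1 passed an adjusted p of 0.05 by limma, or 0.00309%, and the unadjusted p was under 0.05 for 1781. The one that passed differed by -3.08 on the log2 scale (SE 0.167, adjusted p = 0.0126 by limma, n = 3), far beyond any regulator. With any single array left out, of either group, 0 probe sets passed by limma, with 1063 to 2250 at an unadjusted p under 0.05. A mean difference of at least 0.544, the smallest size among the regulators, was found for 1275 probe sets, or 3.94%, of which 586 were higher and 689 lower. That count was 2092 without shLOXL2 replicate 2, 1931 without shControl replicate 2 and 2046 without shControl replicate 3. Which side held more of them depended on the processing. Quantile normalization gave 638 higher and 631 lower, median centring 699 and 603, and leaving out dim probe sets 407 and 353. More were higher too without shControl replicate 1 or 2, and more were lower when any other array was left out. No direction is therefore read from the split. Between 0.544 and 1.42, the sizes of the regulators, there were 1254 probe sets. Their median SE was 0.287, with a 95% interval of ±0.679 at the median, against 0.158 and ±0.375 over all probe sets. The 1254 were picked by their own difference on these arrays, which favours noisy ones, so their values are not the error of the regulators. The interval left out 0 for 668 of the 1254, or 53.3%, and the lowest adjusted p among them was 0.363 by limma. With the replicate number as a block, it left out 0 for 1017 of the 1254. The labels do not give this pairing, which was taken from these same arrays, so that count is no independent check. No probe set with a difference of that range passed adjustment over the array.

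**Figure D4:**
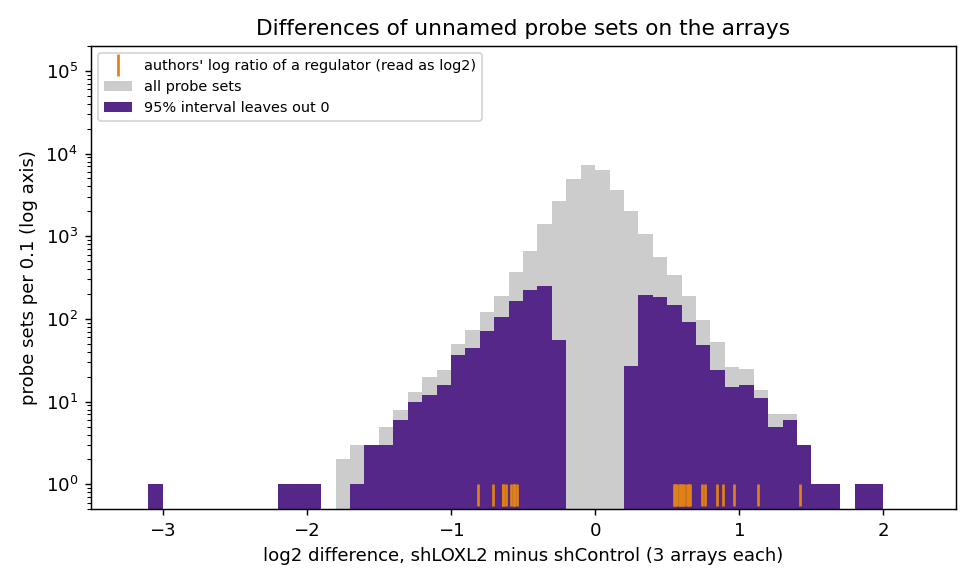
Number of probe sets per 0.1 (vertical log axis) by their log2 difference between 3 shLOXL2 and 3 shControl arrays (horizontal axis), for all 32321 probe sets in grey and for those whose 95% interval leaves out 0 in purple. The ticks at the foot are the log ratios of the 30 regulators, which lie between 0.544 and 1.42 in size, where the interval left out 0 for 53.3% of probe sets.

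In gene order the members lay mostly apart from other listed genes, as did most of the listed genes that are not members. The 29 matched to RefSeq lay on 15 chromosomes, with at most 4 on any. Of the 28 protein-coding ones, 1 lay next to another listed gene in gene order, or 3.57%, against 54 of 586 other listed genes, or 9.22%. This was ELK3, whose neighbour CDK17, a kinase, was at -0.57 in the authors' deposited table. Other members with a listed gene at most 5 genes away had it on either side of 0. On the side of the member, FOXM1 was 2 genes from TULP3 (1.14), PBXIP1 was 3 from CKS1B (0.74), and ZNF165 and GTF2B were 5 from HIST1H3J (0.55) and GBP2 (0.57) in the authors' deposited table. On the opposite side, CIR1 was 2 genes from GPR155 (-0.565) and C1D was 5 from RAB1A (-0.54) in the authors' deposited table.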

How the data were processed

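RNA of 6 samples, 3 shLOXL2 and 3 shControl, was measured on Affymetrix arrays after whole-transcript amplification, per the labels' protocols. The value table holds log2 values that the authors made with RMA, per the submitters' processing notes; neither its version nor a build is stated there. The deposited table of log ratios, used as a score per entry, was exported from software of Ingenuity Systems, per the file headers, which added type and location. Its log base, direction and rule of selection are not stated. Decimal commas were converted and a leading question mark was read as minus, which put the 724 entries in falling order with 0 breaks. Ranked array differences over ranked entries had a median of 1.12 (higher) and 1.30 (lower). Log2 would give 1 and natural logs 1.44 only if the entries were the most extreme array differences, which is not known. The lowest entry, -3.04 in the authors' deposited table, lay near the lowest array difference on the log2 scale, -3.08. So log2 was assumed and is not settled. Entries of a gene were averaged, and 1 gene with entries of both signs was left out of counts.

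limma (3.58.1, R 4.3.3) was fitted to 32321 probe sets with group as the term and Benjamini-Hochberg adjustment, and was tested on simulated data. The planned naming of members on the arrays was not possible. Deviations of same-numbered arrays from their group means correlated at 0.354, 0.452 and 0.160, so the numbers were taken as pairs, from the data and not the labels, and the block was an alternative. The number of arrays limits the precision. Members, lists, classes and motifs were chosen with earlier results of these data known. Named with values were the 10 highest and lowest members, homeobox, bHLH and list members and the 3 nearest 0 on each side; the other members, and non-members beside them, were named after their values were seen. Promoters and names are from RefSeq (GRCh38.p14); of several promoters of a gene, that at the annotated gene start was used, otherwise the first.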

Additional observations from a re-analysis of the deposited data

How the results depend on the processing

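The counts of members did not move by more than 1.5 times when entries were counted in place of genes, when the genes left out were put back, when any location was allowed or, chosen after seeing the data, without genes known elsewhere or with near-identical copies. Only at or above the median size were they lower, 8 listed higher and 2 listed lower, since fewer genes are counted there. Zinc finger genes became 3 higher and 5 lower with all genes of that name, also chosen after seeing the data. The planned assignment of zinc fingers from protein sequence was not run, as no protein table was used here. On the arrays, 1 probe set passed limma under quantile normalization, median centring, the filter on dim probe sets and the replicate block (1 call with the block, and 2964 probe sets at an unadjusted p under 0.05 against 1781 without it). There were 0 calls by limma with shControl replicate 1 alone as control (3975 probe sets at an unadjusted p under 0.05; that array is taken to vary as those of the other group do) and 0 to 0 with any array left out. The 1275 probe sets with a difference of at least 0.544 became 760 with dim ones left out, 4784 with shControl replicate 1 alone and 1292 to 2092 with any array left out. The cause was not tested. Without values per array, nothing here gives the error of a single regulator.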
